A study of Mus musculus with 11 samples.

Results

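The transcripts of vTreg53 TCR-tg Treg cells in visceral adipose tissue (VAT) were compared with those of the same clonotype in the pooled spleen and lymph nodes (Spl/LN) of mice given adjuvant alone. Every library that the labels place in these groups was used, 2 from VAT and 3 from Spl/LN, which are 5 of the 11 libraries of the series. A gene was tested when its mean count, after each library was scaled to the mean library total, was above 10 in either group, and 12439 of the 52997 genes in the table met this rule. All libraries share one design. Treg cells from the spleen and lymph nodes of male C57BL/6 vTreg53 Tg+ mice, which carry the TCR of one Treg clone found in VAT together with a Foxp3 reporter, were injected into CD45.1 B6 males. The recipients received complete Freund's adjuvant under the skin 6 weeks later and incomplete Freund's adjuvant into the peritoneum 1 week after that, in the groups compared here without peptide. The labels call these mice unimmunized and name PBS, and give an age of 15 weeks. Clonotype+ donor cells were double sorted, 1000 cells to a library. The cells were thus sorted by the TCR variable regions of one clone, and whether all share its specificity was not tested. Both groups descend from one donor pool type. The question asked is which transcripts part the clonotype+ cells of mice given adjuvant alone by the tissue they were taken from. The VAT was minced and digested with collagenase at body temperature, a step not described for Spl/LN, so tissue and cell isolation cannot be told apart in any difference given here. Nor can tissue be told apart from a local effect on VAT of the adjuvant injected into the peritoneum.

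VAT Treg cells are a population of Foxp3+ CD4+ T cells that build up in the abdominal fat of lean male mice and restrain its inflammation. As background, they depend on the transcription factor Pparg and on the alarmin IL-33, which is read through the receptor ST2, encoded by Il1rl1. They pass from a lymphoid state, held by factors such as Tcf7 and Id3 and by the homing receptors of lymph nodes, to an effector state with tissue chemokine receptors, type 2 cytokines and lipid-handling genes.

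The sorted cells carried mainly the TCR variable genes of the clone in both tissues. Trav14n-3 supplied 91.7 to 97.6% of all TCR alpha variable counts, and Trbv2, which encodes Vβ4, supplied 95.9 to 97.8% of all beta variable counts in the 5 libraries, although 51.9% of the 38-base stretches of Trav14n-3 occur in other genes. Cd4, the coreceptor, had 2109.7, 2547 and 2515 normalized counts in Spl/LN and 2526 and 2719.9 in VAT (counts brought to the mean library size after TMM normalization) and was not called (log2 difference 0.13 ± 0.09, SE; edgeR adjusted p = 0.379). Foxp3 had 7326, 7642 and 7303 in Spl/LN and 10229 and 9393 in VAT, a call of 1.32-fold that was lost with quantile normalization (adjusted p = 0.266 by limma). Total counts were 4915820 to 5658594 in Spl/LN, and 5289428 and 4490242 in VAT. Markers of adipocytes, neutrophils, fibroblasts and natural killer cells each summed to at most 7.73 CPM in all 5 libraries. Other marker sums were higher, at 19.3 to 34.5 CPM for CD8 T cells, 43.2 to 103 for endothelium and 166 to 348 for dendritic cells. Cd8b1, Pecam1 and Cd74 held most of these counts. Markers of B and plasma cells summed to 3444 to 3729 CPM in Spl/LN and to 1216 and 7284 in VAT. Kit, a receptor of mast cells and their precursors, had 50, 8 and 1 counts in Spl/LN and 81 and 162 in VAT, beside at most 6 counts of the mast cell gene Cpa3. In each library of sorted cells, fewer cells with a transcript and less of it per cell cannot be told apart.

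VAT replicate 2 stood apart by its immunoglobulin transcripts, which belong to B and plasma cells. Counts over the 346 immunoglobulin variable genes were 43, 1026 and 194 in Spl/LN, and 412 and 8567 in VAT. Igkc, the kappa constant gene, had 209, 1709 and 511 counts in Spl/LN, and 721 and 8274 in VAT, and Jchain, the joining chain of secreted antibody, had 0, 504 and 67 against 58 and 1388. The range within each tissue was thus wide, and VAT replicate 1 lay within the range of the Spl/LN libraries for the variable genes, Igkc and Jchain. Of the 8 immunoglobulin variable genes tested, 6 were called higher and 2 lower in VAT, and the part of this one library in other results is given by the values without it.

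**Figure D1:**
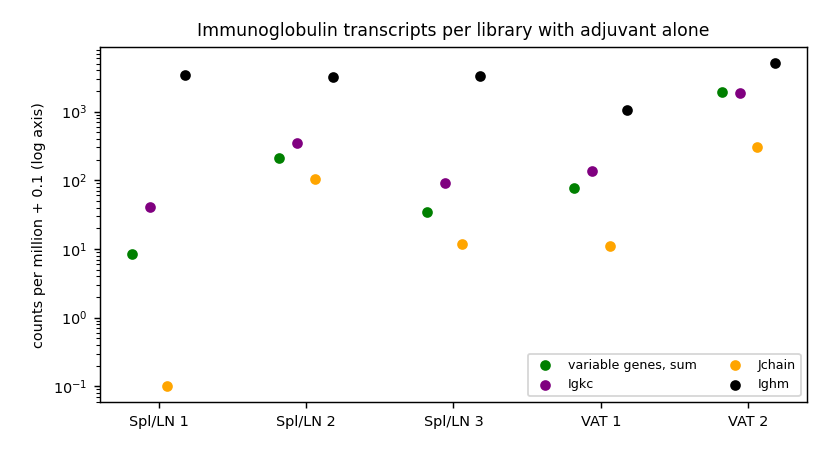
CPM, with 0.1 added, on a log axis for the summed immunoglobulin variable genes, Igkc, Jchain and Ighm in each library with adjuvant alone. VAT replicate 2 has the highest value of all 5 libraries for each of the 4 measures, and Spl/LN replicate 1 has no count of Jchain.

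The tissue difference was broad. At an adjusted p under 0.05, 2110 of 12439 genes were called (17.0%), 1171 higher in VAT (9.41%) and 939 lower (7.55%), and 1148 of these differed at least 2-fold. An unadjusted p under 0.05 was reached by 3646 genes. The groups did not overlap for 42.3% of all genes tested, and called genes without overlap were 16.9%. Of the 2110 called genes, 2096 were without overlap, so a lack of overlap stated below for a called gene adds little to its call. The median log2 difference over all genes was -0.03, against which the median of each gene list below should be read. The calls fell to 1287 without VAT replicate 1 and to 1394 without VAT replicate 2. Some list members passed the count filter only through the tissue where they were high. Through VAT these included Atf3, Fosb, Zeb2, Il5, Cd36, Ier3, Klf4 and Hspa1a, and through Spl/LN Ccr10, Cd160, Cd9, Dtx1 and Ccl1. Counts and medians of their lists rest in part on such genes. The plot of gene lists shows where the called genes lay. AP-1 factors, chemokine ligands, chemokine receptors and MAP kinase phosphatases had the highest medians in this fit, inhibitory receptors, mitotic genes and central T cell factors the lowest, and ribosomal protein and respiratory chain genes stood close to 0.

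**Figure D2:**
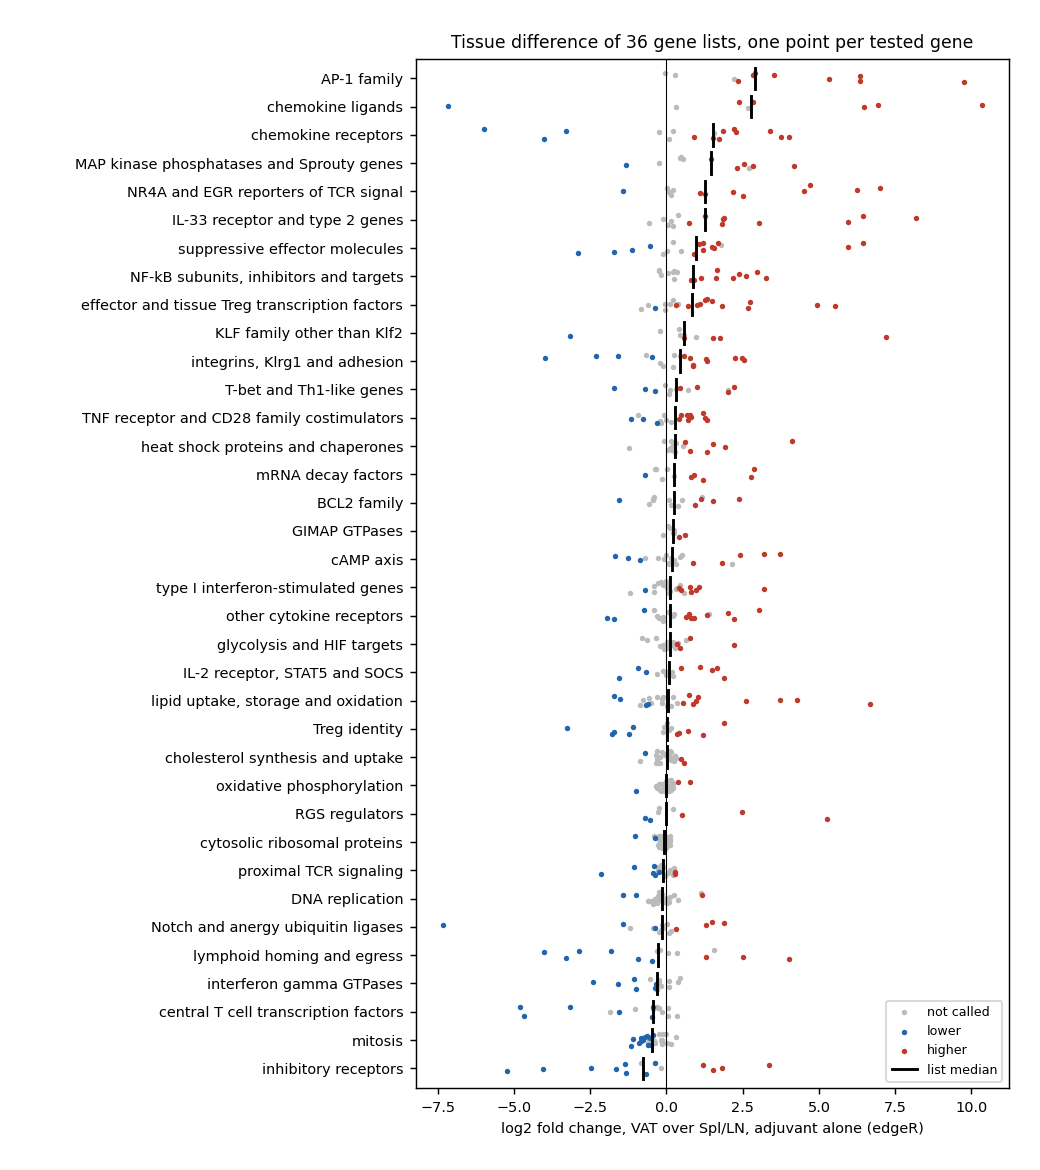
The log2 fold change of VAT over Spl/LN with adjuvant alone for every tested member of 36 gene lists, one point per gene, red where called higher, blue where called lower and grey where not called, with a black bar at the list median. Lists are ordered by their medians, from -0.76 for inhibitory receptors to 2.91 for the AP-1 family, and most lists hold genes on both sides of 0.

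The 10 largest increases were taken from called genes whose groups did not overlap, at 20 or more normalized counts in every library. They were Fosl2, Areg, Fos, Rgs2, Cdkn1a, Hilpda, Gem, Ppp1r15a, Pcsk1 and Nr4a3, from 80.4-fold down to 26.2-fold. Fosl2, an AP-1 factor, had 39.5, 34.3 and 63.8 normalized counts in Spl/LN against 3665 and 3798 in VAT. Rgs2, which shortens signals of G protein-coupled receptors, had 98.2, 75.8 and 93.9 against 3354 and 3487. Cdkn1a, the cell cycle inhibitor p21, had 57.7, 40.5 and 23.7 against 1559 and 1296. Separation of the groups was part of the rule that chose these genes. Hilpda, a lipid droplet protein that inhibits fat lipolysis, had 157, 169 and 29.2 against 4482 and 3303, so that one Spl/LN library fell well below the other two. Ppp1r15a, the stress-induced phosphatase subunit GADD34, had 264, 157 and 263 against 7270.4 and 6722, and Pcsk1, a prohormone convertase, had 32.7, 143 and 63.8 against 2124 and 2112. Gem, a small GTPase, had 132, 87.3 and 57.4 against 3735 and 2287. For these 3, the relative spread was wider in Spl/LN than in VAT.

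The 10 largest decreases under the same rule were Id3, Tcf7, St6gal1, Gpr18, Ccr7, Klf3, Capn3, Slamf6, P2rx7 and Pdlim1, from 27.8-fold to 6.95-fold lower in VAT. Id3, an inhibitor of E proteins on chromosome 4 (136143497 to 136145755, GRCm38, plus strand), had 807, 929.7 and 865 normalized counts in Spl/LN and 37.9 and 23.7 in VAT (log2 difference -4.79 ± 0.21, SE; edgeR adjusted p = 3.06e-11). St6gal1, the sialyltransferase that caps N-glycans, had 961, 1098 and 878 against 71.4 and 52.3. Slamf6, a homophilic receptor of the SLAM family, had 1647, 1777 and 1756 against 205 and 244. The rule again admitted only genes without overlap, and Slamf6 was still well detected in VAT. P2rx7, the ATP receptor, had 426, 819.6 and 742 against 107 and 72.2, and Gpr18, a G protein-coupled receptor, had 327, 315 and 267 against 28.1 and 33.6. The protease gene Capn3 fell by 2.96 and the LIM-domain gene Pdlim1 fell by 2.80 on the log2 scale.

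**Figure D3:**
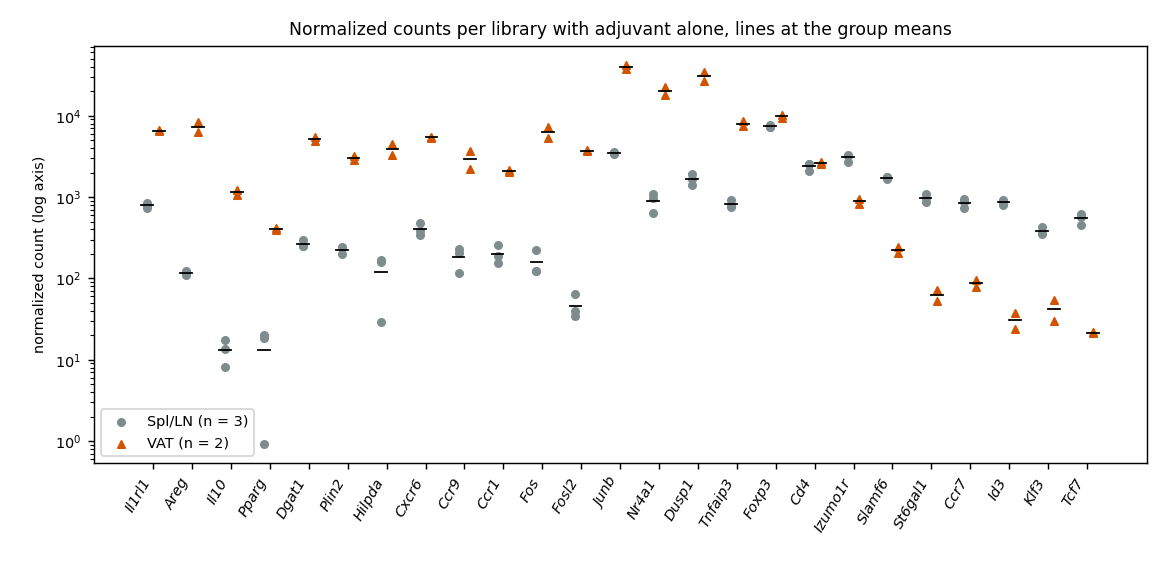
Normalized counts on a log axis for 25 genes in the 3 Spl/LN libraries (grey circles) and the 2 VAT libraries (orange triangles) with adjuvant alone, with a black line at each group mean. The groups are apart for every gene shown except Cd4, where VAT values lie within or just above the Spl/LN range. Levels of different genes are not comparable here because counts grow with transcript length.

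Genes of the IL-33 receptor and of type 2 immunity were higher in VAT. Of 18 genes listed, 15 were tested and 9 were called, each of them higher, with a median log2 difference of 1.25. Il1rl1, which encodes ST2, had 781, 739 and 851 normalized counts in Spl/LN and 6593 and 6431 in VAT, 8.24-fold (log2 3.04 ± 0.19, SE; edgeR adjusted p = 3.26e-09). Il10, the suppressive cytokine, had 17.3, 13.5 and 8.20 against 1231 and 1046, and Areg, the epidermal growth factor family ligand amphiregulin, had 109.7, 121 and 122 against 8363 and 6269. The groups were far apart for all of these, with Il10 scarce in Spl/LN. Il5, the eosinophil growth factor, had no count in the 3 Spl/LN libraries and 49.8 and 22.4 normalized counts in VAT, at least 38.3-fold higher against a floor of 3 counts over the group, with 23.0% of its stretches shared. Ccr8, the prostaglandin D synthase gene Hpgds, Rora, Gata3 and Il4ra were the other members called higher, by log2 1.85, 1.87, 1.81, 1.25 and 0.73. The IL-33 signaling genes Myd88, Il1rap and Irak1 had log2 differences of -0.13, 0.05 and 0.38 and were not called.

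Suppressive effector molecules differed in both directions. Of 18 tested of 19, 9 were called higher and 4 lower, with a median of 0.98 that became 0.61 without VAT replicate 1, and 2 were called lower without VAT replicate 1 and 1 without VAT replicate 2. Beside Areg and Il10, the higher genes included Fgl2, a fibrinogen-like suppressor protein, with 1416, 1509 and 1395 normalized counts in Spl/LN against 4692 and 4687 in VAT, and Ctla4, the inhibitory CD28 homolog, with 3845, 3885 and 3782 against 9617 and 8070.2. Penk, which encodes proenkephalin, had 749, 852 and 961 against 3051 and 2027, and Gzmb, which encodes granzyme B, had 2103, 2501 and 2384 against 6233 and 4373. The groups did not overlap for these 4, with the wider VAT spread for Penk and Gzmb. Nt5e, the ectoenzyme CD73, was lower, with 1177, 1434 and 1469 against 394 and 429, whereas Entpd1, which encodes the preceding enzyme CD39, had 889, 844 and 895 against 928 and 854 and was not called (edgeR adjusted p = 0.897). Prf1, which encodes perforin, and Pltp, a phospholipid transfer protein, were lower by log2 -1.14 and -2.91.

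Transcription factors of effector and tissue Treg cells were higher in VAT for 12 of 20 tested genes and lower for 1, Ikzf3 (log2 -0.37), with a median of 0.84. Pparg, the nuclear receptor that marks VAT Treg cells, had 20.2, 18.7 and 0.912 normalized counts in Spl/LN and 412 and 397 in VAT. Zeb2, a zinc finger repressor, had 0.962, 19.7 and 0 against 319 and 301. Id2, the E protein inhibitor often found opposite to Id3, had 439, 598 and 499.5 against 3506 and 3266. VAT values were close to each other and well above Spl/LN for the 3 genes, while 1 of the Spl/LN libraries had nearly no Pparg and 1 alone held most of the Zeb2 counts. Bhlhe40, Rora, Rbpj, Nfil3 and Gata3 were higher by log2 2.66, 1.81, 1.48, 1.34 and 1.25, and 25.5% of the Rbpj stretches are shared. Irf4 and Batf, an AP-1 partner pair of effector Treg cells, had log2 differences of 0.21 ± 0.15 and -0.04 ± 0.11 (SE) and were not called (adjusted p = 0.374 and 0.869), nor was Prdm1 at 0.37 ± 0.19, with an adjusted p of 0.209.

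Factors of central T cells went the other way. Of 16 tested of 18, 6 were called, each lower, with a median of -0.45, and quantile normalization with limma called 11 lower. Tcf7, the factor TCF-1 of lymphoid T cells, had 454, 577 and 612 normalized counts in Spl/LN and 21.6 and 21.2 in VAT, and Klf3 had 432, 358 and 351 against 30.3 and 54.8. Myb, Foxp1 and Ets1 were lower by log2 -1.56, -0.49 and -0.45, differences smaller than those of Id3, Tcf7 and Klf3. Lef1, the close relative of Tcf7, had 642, 774 and 697 against 567 and 576, with groups apart but no call (log2 -0.30 ± 0.13, SE; edgeR adjusted p = 0.12), and Klf2, which drives S1pr1, had 70.3, 49.9 and 81.1 against 75.7 and 64.7, within one range. Bach2 had 60.6, 81.0 and 42.8 against 2.16 and 32.4, where VAT replicate 1 was nearly empty and replicate 2 was not, and was not called (adjusted p = 0.16).

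Genes of Treg identity did not move as one. Of 15 tested, 5 were called higher and 5 lower, with a median of 0.03 that became -0.17 under quantile normalization, which called 3 higher. Il2ra, the high-affinity IL-2 receptor chain CD25, had 2998, 2592 and 3117 normalized counts in Spl/LN and 10971 and 10327 in VAT, 3.67-fold. Izumo1r, the folate receptor FR4, was lower with 2669.8, 3329 and 3226 against 826 and 957, and Gpr83, a G protein-coupled receptor, was lower with 178, 378 and 185 against 17.3 and 34.9. None of these overlapped between tissues, which holds for nearly all called genes. Nrp1 and Lrrc32, which encodes the TGF-β carrier GARP, were lower by log2 -1.09 and -1.25, while Tnfrsf18, which encodes GITR, was higher by 0.71. The Ikaros family genes Ikzf2 (Helios) and Ikzf4 (Eos) differed by 0.14 and -0.07 and were not called.

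Genes of lipid uptake, storage and oxidation were called higher for 9 of 26 tested of 30 and lower for 4, with a median of 0.05 that became -0.14 without Spl/LN replicate 2 and -0.02 without VAT replicate 1. Lower calls numbered 1 without VAT replicate 2 and 2 without VAT replicate 1, Spl/LN replicate 1 or Spl/LN replicate 3. Genes of triglyceride synthesis and storage were among those called higher. Dgat1, which closes triglyceride synthesis, had 248, 250.4 and 295 normalized counts in Spl/LN and 5496 and 4862 in VAT, and Dgat2, the second enzyme of that step, had 258, 258 and 223 against 874 and 2147. Plin2, the coat protein of lipid droplets, had 239.6, 240.0 and 199 against 3169 and 2852. VAT was above Spl/LN in each, although the VAT libraries lay furthest apart, relative to their level, for Dgat2. Cd36, the fatty acid receptor, had no count in Spl/LN and only 4.33 and 21.2 normalized counts in VAT, and was called higher. Cpt1a, which carries fatty acids to mitochondrial oxidation, had 583, 703 and 479 against 1283 and 1113, and Fabp5, a fatty acid binding protein, had 257, 156 and 106 against 306 and 371. Both were called higher. Gpam, which opens glycerolipid synthesis, and Scd2, a fatty acid desaturase, were lower by log2 -1.71 and -1.54. The lipase gene Pnpla2 and the cholesterol exporter Abca1 had log2 differences of 0.02 and -0.89 and were not called. The adipocyte genes Adipoq, Plin1, Cidec, Lep, Cfd, Adig and Cidea had at most 9 counts in any of the 5 libraries.

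Other energy pathways were close to the median of all genes. In oxidative phosphorylation, 2 of 43 genes were called higher and 1 lower with a median of -0.01. Cycs, with 30.6% shared stretches, and Ndufa1 were higher by log2 0.76 and 0.38, calls that were lost under 5 and 7 of 10 alternatives, and Ndufa4 was lower, with 1219, 1102 and 1233 normalized counts against 664 and 514. In glycolysis and hypoxia-inducible factor targets, 4 of 21 tested of 22 were called, each higher, with a median of 0.12, and the higher calls numbered 7 without Spl/LN replicate 1 and 2 without VAT replicate 1. Egln3, an oxygen-sensing prolyl hydroxylase, had 191, 141 and 247 against 946 and 830.3, the largest difference of that list, and Aldoa, Pkm and Ldha were higher by 0.77, 0.45 and 0.33. Reads may be shared for Aldoa and Pkm, with 24.7 and 43.9% of stretches found elsewhere. In cholesterol synthesis and uptake, 2 of 24 were higher (Insig1 and Srebf2, log2 0.57 and 0.47) and 1 lower (Mvd, -0.70), with a median of 0.00, and all 3 lost their calls without VAT replicate 1.

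Chemokine receptors changed in large steps. Of 16 tested of 18, 9 were called higher and 3 lower, with a median of 1.54. Ccr9, the receptor of the gut chemokine CCL25, had 117, 233 and 202 normalized counts in Spl/LN and 2201 and 3717 in VAT, although the gene overlaps others on the opposite strand over 1954 bases and the strand setting of the counts is not stated. Ccr1, a receptor of inflammatory chemokines, had 155, 191 and 255 against 2137 and 2058. The groups were apart by a wide margin for both. Cxcr6, Xcr1, Ccr8, Ccrl2, Ccr2 and Ccr3 were higher by log2 3.76, 2.28, 1.85, 1.71, 1.51 and 0.92. Ccr10, a skin-homing receptor, had 396, 179 and 208 against 7.57 and 0, and Cxcr5, the receptor of B cell follicles, had 262, 337 and 402 against 30.3 and 9.96. Both were much lower in VAT, and only Ccr10 was near 0 there. Cxcr3 had 243, 302 and 196 against 288 and 234, in one range, and Ccr4 and Ccr6 differed by 0.22 and -0.25 without a call.

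Genes of lymphoid homing and egress were lower for 6 of 14 and higher for 3, with a median of -0.28. Ccr7, which guides T cells into lymph nodes, had 959.5, 733 and 863 normalized counts in Spl/LN and 79.0 and 95.9 in VAT. The egress receptor S1pr1 was lower by log2 -1.83. Cd69, which holds S1pr1 off the surface and is also an early activation marker, was higher, with 1007, 949 and 1016 against 6449 and 4957. The 3 genes did not overlap between tissues, like nearly all called genes. Integrins and other adhesion genes were higher for 9 of 19 and lower for 4, with a median of 0.44. Itgav, the alpha chain of vitronectin receptors, had 230.0, 209.8 and 238 against 1274 and 1361, and its beta partner Itgb3 had 146, 129 and 57.4 against 529 and 528. Klrg1, a marker of terminal effector cells, had 4565, 5422 and 5231 against 12824 and 12584. Itgae, the CD103 chain that binds epithelial cadherin, was lower, with 5854, 5429.8 and 5147 against 1805 and 1824. Itgb1 had 1112, 1037 and 1041 against 259.7 and 168, and the tetraspanin Cd9, with 17.7% of stretches shared, had 96.2, 71.7 and 80.2 against 9.74 and 0. Both were lower in VAT without overlap.

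Few chemokine ligand genes were counted. Of 13 listed, 8 were tested, 5 were called higher and 1 lower, with a median of 2.76. Cxcl1, Cxcl2 and Cxcl3 passed the count filter only through VAT, so this median rests in part on genes admitted by a high VAT value. Under the limit on the coefficient of variation, 2 were tested and 1 was called higher, with a median of 1.35. Cxcl2, a neutrophil attractant, had 1.92, 0 and 0.912 normalized counts in Spl/LN and 1949 and 884 in VAT, and 3 counts in all Spl/LN libraries gave a ratio of 1501 with a counting interval of 513 to 7285. Its relatives Cxcl1 and Cxcl3 reached 41.1 and 69.7 and 70.3 and 67.2 in VAT from a total of 1 and 2 counts in Spl/LN. These transcripts are typical of myeloid cells. Markers of macrophages and monocytes summed to 13.2 to 29.4 CPM in Spl/LN and to 6.01 and 10.2 in VAT. Those of dendritic cells summed to 253 to 348 CPM in Spl/LN and to 166 to 169 in VAT. The cell source of the 3 transcripts was not tested. Ccl1 was lower, with 0.962, 28.0 and 24.6 against no count in VAT, a call lost on leaving out any library except Spl/LN replicate 1.

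Inhibitory receptors were lower for 8 of 14 tested of 15 and higher for 4, with a median of -0.76 that became -0.45 without VAT replicate 2, when 6 were called lower. Pdcd1, which encodes PD-1, was higher with 929.7, 1283 and 1088 normalized counts in Spl/LN against 4423 and 3369.7 in VAT, and so was Lilrb4a with 133, 211 and 203 against 1661 and 2121, though 48.9% of its stretches occur in other genes. Cd96, a receptor of the nectin family ligand CD155, was lower with 818, 1137 and 919 against 214 and 131. Btla, Cd200, Lag3 and Tigit were lower by log2 -1.66, -1.36, -1.34 and -0.36. The list thus held 2 opposite sets, PD-1 and CTLA-4 above and LAG-3, BTLA, CD96 and TIGIT below. Cd160 had 64.5, 94.5 and 51.0 against 0 and 3.73, a ratio of 39.8 in counts with an interval of 13.4 to 194.

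Among costimulators of the TNF receptor and CD28 families, 9 of 18 were called higher and 3 lower, with a median of 0.28, and the higher calls numbered 4 without VAT replicate 1 and 5 without VAT replicate 2. Tnfrsf9, which encodes 4-1BB, had 1877, 2341 and 2417 normalized counts in Spl/LN against 5846 and 5221 in VAT. Cd40lg, the ligand of CD40, had 75.1, 75.8 and 81.1 against 164 and 194, and Cd80 had 63.5, 40.5 and 37.4 against 136 and 89.6. Cd27 was lower, with 2934, 3441 and 3086 against 1547 and 1291, and Icos lower by log2 -0.31. For other cytokine receptors, 8 of 22 tested of 25 were higher and 3 lower, with a median of 0.12. Ifngr1, the ligand-binding chain of the interferon gamma receptor, had 2799, 3384 and 3113 against 14169.6 and 14616, and Il10ra had 1248, 1381 and 1283 against 3197 and 3397. Il6ra was lower, with 519, 402 and 472 against 95.2 and 147. These 8 genes did not overlap between tissues, as held for nearly all called genes.

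In the list of IL-2 receptor, STAT5 and SOCS genes, 5 of 14 were higher and 3 lower, with a median of 0.10 that became -0.11 under quantile normalization, and 1 was called lower without VAT replicate 2. Socs2, a STAT5 target that damps cytokine signaling, had 311, 271 and 299 normalized counts in Spl/LN against 909 and 947 in VAT, and Pim1, a survival kinase, had 551, 551 and 532 against 1686 and 1412. Bcl2, the antiapoptotic protein, was lower, with 220.4, 258 and 165 against 62.8 and 82.2. In the BCL2 family as a whole, 4 of 14 tested of 15 were higher and 1 lower, with a median of 0.25, and leaving out Spl/LN replicate 3 gave 2 lower calls. Bcl2l1, which encodes Bcl-xL, had 1012, 1075 and 1128 against 2641 and 2003, and the proapoptotic Pmaip1, which encodes Noxa, had 168, 128 and 93.9 against 656 and 705. Of these antiapoptotic genes, one was thus lower and another higher, without overlap. Bcl2a1d was higher by log2 1.52, with 85.6% of its stretches in other genes of its family.

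Among T-bet and Th1-like genes, 4 of 13 tested of 16 were higher and 3 lower, with a median of 0.31 that became -0.04 without VAT replicate 1, and 1 was called lower without VAT replicate 2. Tbx21, which encodes T-bet, had 53.9, 63.4 and 83.0 normalized counts in Spl/LN and 110.4 and 31.1 in VAT, which overlapped. Il18rap, the accessory chain of the IL-18 receptor, had 243, 346 and 158 against 959 and 1038, and Il18r1, its ligand-binding chain, had 337, 309 and 314 against 126 and 66.0. The 2 chains of one receptor therefore differed in opposite directions, log2 2.01 ± 0.21 and -1.73 ± 0.22 (SE; edgeR adjusted p = 1.50e-06 and 1.93e-05). Ly6c2 was called in neither direction, with 60.6, 12.5 and 20.1 against 3.25 and 250.2, where VAT replicate 2 alone was high.

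In the main fit, the AP-1 family and the chemokine ligands had the highest medians of the lists. Their order changed between settings, with chemokine ligands above on leaving out VAT replicate 2 or any Spl/LN library and at a mean above 50. Under the limit on the coefficient of variation, only 2 chemokine ligands were tested. Their median of 1.35 was below that of chemokine receptors (1.57). Of 11 AP-1 genes tested of 13, 8 were called, each higher, with a median of 2.91, and 5 were called under the added limit on the coefficient of variation. Atf3 and Fosb passed the count filter only through VAT, so this count and median rest in part on genes admitted by a high VAT value. Fos had 222, 124 and 125 normalized counts in Spl/LN and 7211 and 5305 in VAT, Junb 3455, 3419 and 3594 against 42341 and 37912, and Jun 286, 213 and 231 against 2073 and 1591. Fosb had 18.3, 3.12 and 4.56 against 827 and 594. Every VAT value was several-fold above every Spl/LN value. Atf3, a stress-induced member, had 0.962, 0 and 0 against 533 and 238, with 1 count in all of Spl/LN, for a ratio of 1227 with a counting interval of 219 to 48531. Jund and Jdp2 were higher by log2 2.35 and 2.85. Immediate early genes answer to many signals, handling of tissue included. The part in these values of the digestion used for VAT, or of the adjuvant in the peritoneum, was not tested.

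The receptors and feedback genes that report TCR signals were higher for 8 of 13 and lower for 1, with a median of 1.27. Nr4a1, the orphan nuclear receptor Nur77, had 628, 974 and 1087 normalized counts in Spl/LN and 22814 and 17918 in VAT. Nr4a2 had 3.85, 24.9 and 1.82 against 1353 and 1198, and Nr4a3 71.2, 183 and 179.6 against 4176 and 3405. The 3 members of the NR4A family lay far above Spl/LN in both VAT libraries. Egr1 had 342, 488 and 529 against 1653 and 2412 and Ier3 5.77, 0 and 0 against 160.1 and 149, both higher in VAT. Egr2, a factor of T cell anergy, was lower with 154, 238 and 215 against 58.4 and 92.1, Egr3 had a log2 difference of 0.03, and Cd5, whose level follows TCR signal strength, had 0.08, the last 2 without a call. Genes of proximal TCR signaling were lower for 6 of 23 and higher for 2, with a median of -0.13. Sh2d1a, the SLAM adaptor SAP, had 710.3, 769.8 and 694 against 157 and 172, with 52.7% of its stretches shared, and the kinase gene Prkcq had 1744, 1683 and 1855 against 817 and 875. Lck, the kinase at the receptor, had 7439, 7737 and 7464 against 6098 and 5083. Lower calls numbered 2 without VAT replicate 2, and the higher calls, Cd6 and Lcp2 (log2 0.28 and 0.27), were both lost without VAT replicate 1.

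MAP kinase phosphatases and Sprouty genes, which feed back on the same pathways, were higher for 5 of 11 tested of 13 and lower for 1, with a median of 1.47. Dusp1 had 1898, 1426 and 1672 normalized counts in Spl/LN against 34112 and 26893 in VAT, Dusp10 115, 172 and 132 against 1099 and 914, and Dusp5, with 20.9% of stretches shared, 215, 294 and 215 against 1484 and 1292. Dusp2 was the one lower member, with 723, 650.3 and 539 against 267 and 243, and Spry1, Spred1 and Spred2 differed by log2 0.54, 0.46 and 0.47 without a call. Family members of the same function thus went in opposite directions.

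The promoters of 5 of these genes are printed to show the core of the cAMP response element, a short sequence to which proteins of the CREB and ATF families can bind. The core searched was TGACG on either strand, which on the opposite strand reads CGTCA, and the full palindrome TGACGTCA contains it on both strands. Sequences are from RefSeq (GRCm38.p6), from 250 bases before to 50 after the gene's start, 5′ to 3′ on the gene's own strand, with each core in capitals. Fos lies at chr12:85473640-85473939 (plus strand), Nr4a1 at chr15:101266596-101266895 (plus), Nr4a3 at chr4:48045055-48045354 (plus), Dusp1 at chr17:26508423-26508722 (minus) and Areg at chr5:91139349-91139648 (plus).
Fos: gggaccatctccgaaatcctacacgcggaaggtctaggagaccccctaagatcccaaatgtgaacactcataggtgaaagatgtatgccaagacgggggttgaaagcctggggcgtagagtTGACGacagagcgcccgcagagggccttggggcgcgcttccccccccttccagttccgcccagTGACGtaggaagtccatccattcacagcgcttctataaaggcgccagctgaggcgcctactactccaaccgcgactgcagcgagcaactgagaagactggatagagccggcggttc
Nr4a1: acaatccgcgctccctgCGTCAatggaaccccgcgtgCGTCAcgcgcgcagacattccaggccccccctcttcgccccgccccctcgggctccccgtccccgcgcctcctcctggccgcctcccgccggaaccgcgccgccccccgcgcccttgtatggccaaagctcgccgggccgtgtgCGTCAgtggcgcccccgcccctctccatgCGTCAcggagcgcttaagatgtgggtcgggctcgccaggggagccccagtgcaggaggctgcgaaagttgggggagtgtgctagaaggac
Nr4a3: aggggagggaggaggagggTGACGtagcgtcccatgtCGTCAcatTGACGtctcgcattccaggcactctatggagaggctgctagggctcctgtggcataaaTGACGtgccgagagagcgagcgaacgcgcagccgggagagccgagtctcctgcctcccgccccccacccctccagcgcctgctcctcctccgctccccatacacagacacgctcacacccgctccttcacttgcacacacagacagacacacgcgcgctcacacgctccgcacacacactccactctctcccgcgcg
Dusp1: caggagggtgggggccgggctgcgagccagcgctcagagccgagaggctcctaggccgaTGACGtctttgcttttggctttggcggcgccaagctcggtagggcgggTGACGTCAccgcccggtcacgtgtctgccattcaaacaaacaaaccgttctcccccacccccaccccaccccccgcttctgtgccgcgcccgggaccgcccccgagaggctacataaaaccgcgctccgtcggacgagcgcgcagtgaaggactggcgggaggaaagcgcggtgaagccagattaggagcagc
Areg: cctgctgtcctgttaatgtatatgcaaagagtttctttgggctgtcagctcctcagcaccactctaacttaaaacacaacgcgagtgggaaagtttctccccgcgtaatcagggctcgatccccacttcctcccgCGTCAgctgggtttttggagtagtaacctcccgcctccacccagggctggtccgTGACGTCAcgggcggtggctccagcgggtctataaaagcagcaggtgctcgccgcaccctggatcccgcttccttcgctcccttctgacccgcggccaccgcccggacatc
The window held 2 cores in Fos, 4 in Nr4a1, 4 in Nr4a3, 3 in Dusp1 and 3 in Areg, and the full palindrome once each in Dusp1 and Areg. Over all 32851 promoters in the table, 20.8% held at least 1 core and 1.79% the palindrome. Shares over all promoters include genes that were not tested, and count promoters where the lists below count genes. They are thus not a matched background for the called genes, and enrichment was not tested. Of the 8 AP-1 members called higher, all had a promoter in the table and 5 held the core (Fos, Fosb, Junb, Atf3 and Jdp2), and 0 held the AP-1 site TGANTCA itself, which 7.81% of all promoters hold. Of the 8 reporters of TCR signal called higher, only 4 had a promoter in the table and 3 held the core (Nr4a1, Nr4a2 and Nr4a3). Of the 5 MAP kinase phosphatase and Sprouty genes called higher, 4 had a promoter and 2 held the core (Dusp1 and Dusp5). The element was chosen after the values were seen, and only 8972 of the 12439 tested genes (72.1%) had a promoter in the table, so no share is given for called genes as a whole. A match in these letters is not a binding site measured here.

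Genes of the cAMP axis were higher for 5 of 20 tested of 22 and lower for 3, with a median of 0.19. Crem, the inducible cAMP response factor, had 235, 252 and 243 normalized counts in Spl/LN and 2192 and 2322 in VAT, and the phosphodiesterase Pde4d had 52.9, 23.9 and 71.1 against 149 and 199. Both were higher without overlap. The prostaglandin E2 receptors Ptger2 and Ptger4 were lower by log2 -1.68 and -1.25, with 359, 410.3 and 325 against 134 and 92.1 for Ptger2. Among RGS regulators, 3 of 8 tested of 9 were higher and 2 lower, with a median of -0.03. Rgs16 had 218, 261 and 341 against 1851 and 1206 and Rgs10, the lower member with the larger change, had 1154, 1413 and 1295 against 807 and 789.

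NF-κB subunits, inhibitors and targets were called for 10 of 18, each higher, with a median of 0.85. The inhibitors and feedback genes led. Tnfaip3, which encodes the ubiquitin-editing enzyme A20, had 799.8, 929.7 and 755 normalized counts in Spl/LN and 8510.4 and 7432 in VAT, Nfkbia, the inhibitor IκBα, 4481, 4604 and 4089 against 22098 and 18181, and Nfkbid 696, 1039 and 1028 against 5909 and 5353. Nfkbiz had 629, 566 and 866 against 5826 and 4986. Of the 5 subunits, Rel was higher with 560.1, 547 and 467 against 1863 and 1471, while Rela, Relb, Nfkb1 and Nfkb2 had log2 differences of -0.19, -0.25, 0.35 and 0.25 and were not called. Factors of mRNA decay were higher for 5 of 11 and lower for 1, with a median of 0.26. Zfp36, which encodes tristetraprolin, had 868, 679 and 808 against 5904 and 5574, and Btg2 had 725, 891 and 626 against 5512 and 4695. Zc3h12a, which encodes the RNase Regnase-1, had 137, 96.6 and 130.4 against 259 and 300.0. The 5 members with no call lay between log2 -0.39 (Rc3h1) and 0.26 (N4bp1).

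Heat shock proteins and chaperones were called for 6 of 17 tested of 18, each higher, with a median of 0.27. Hspa8, the constitutive HSP70, had 5220.2, 5216 and 5538 normalized counts in Spl/LN and 9492 and 8857 in VAT, and its cochaperones Dnaja1 and Bag3 had 751, 979.6 and 867 against 2536 and 2457 and 121, 160.0 and 167 against 374 and 382. Hspa1a, the inducible HSP70 that shares 68.8% of its stretches, had only 3.85, 7.27 and 0 against 40.0 and 89.6. KLF genes other than Klf2 were higher for 4 of 10 and lower for 1 (Klf3), with a median of 0.58. Klf6 had 807, 834 and 762 against 3005 and 2410.0, and Klf4, with 3 counts in all of Spl/LN, had 203 and 121 in VAT, for a ratio of 170.4 with a counting interval of 57.7 to 831.

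Among Notch and anergy ubiquitin ligase genes, 4 of 16 tested of 17 were higher and 3 lower, with a median of -0.15, and higher calls numbered 2 without Spl/LN replicate 1, Spl/LN replicate 2 or VAT replicate 2. Dtx1, the Notch-linked ligase Deltex1, was the member with the largest change, with 412, 561 and 491 normalized counts in Spl/LN and 0 and 6.22 in VAT. Rnf128, which encodes the anergy ligase GRAIL, and Nedd4 were higher by log2 1.31 and 1.88, and Cblb and Itch differed by 0.08 and -0.17 without a call. Of 8 GIMAP GTPases, which support T cell survival, 2 were higher (Gimap4 and Gimap7, log2 0.40 and 0.60) with a median of 0.23, and both calls were lost without VAT replicate 2.

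Interferon genes were counted as a type I and an interferon gamma list, between which no difference was tested. Of 23 type I interferon-stimulated genes, 7 were higher and 1 lower, with a median of 0.13 that became -0.13 without VAT replicate 1. Higher calls numbered 1 without VAT replicate 1, 4 without any one Spl/LN library and 3 with the replicate number as a block. Bst2, the virus tether, had 563, 555 and 415 normalized counts in Spl/LN and 1261 and 886 in VAT, while Ifit1 and Ifit3 differed by 0.30 and -0.43 with no call. Of 16 interferon gamma GTPases and their regulators, 6 were called, each lower, with a median of -0.31, and 3 were lower without VAT replicate 1. Gbp5, a guanylate binding protein, had 184, 177 and 246 against 98.5 and 93.4, and Iigp1 had 264, 456 and 393 against 96.3 and 152. Tgtp1 was lower by -2.41, with 93.2% of its stretches shared with its copies.

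Mitotic genes were called for 13 of 30, each lower in VAT, with a median of -0.49, and the lower calls numbered 7 without VAT replicate 1 and 7 without VAT replicate 2. Bub1, a checkpoint kinase, had 207, 129 and 286 normalized counts in Spl/LN and 87.6 and 97.1 in VAT, Birc5, which encodes survivin, 667, 523 and 511 against 346 and 293, and Top2a 1345, 1052 and 1006 against 898 and 696. Mki67, the proliferation marker, had 865, 615 and 628 against 678 and 594, within one range, and was not called. DNA replication genes were higher for 1 of 30 and lower for 2, with a median of -0.14 that became -0.46 without VAT replicate 1, when 6 were lower, and 0.13 without VAT replicate 2. Lig1, a DNA ligase, was higher with 606, 494 and 374 against 1267 and 956, and Rrm2, which supplies deoxynucleotides, lower with 1580.3, 1217 and 1477 against 919.8 and 515. Of 77 cytosolic ribosomal protein genes, 2 were called, both lower, with a median of -0.07. The 2 were Rps2 and Rps27 (log2 -1.03 and -0.39), of whose stretches 75.0 and 29.0% are shared, and quantile normalization, which moved the median of the list to -0.25, called 31 lower.

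The same tissue comparison in mice given adjuvant/Fat1562, 3 libraries of each tissue, called 1059 genes higher in VAT (8.51%) and 869 lower (6.99%). A difference between the 2 tissue differences, the interaction, was called for 490 genes (3.94%), 223 with a higher VAT over Spl/LN difference after Fat1562 (1.79%) and 267 with a lower one (2.15%). The AP-1 median was 2.79 after Fat1562, with 2 interaction calls in 11 genes. Lists of proliferation and metabolism had other medians than with adjuvant alone. Mitotic genes had a median of 0.41 after Fat1562 and 14 of 30 had an interaction call, all toward a higher difference, and DNA replication genes had a median of 0.65 with 2 interaction calls. The glycolysis median was 0.71 after Fat1562, with 4 interaction calls, and that of the GIMAP genes was -0.37, with 5. Of the IL-33 and type 2 genes, 7 of 15 had an interaction call, 6 of them toward a lower VAT over Spl/LN difference. Il10 had 27.7, 36.4 and 40.1 normalized counts in Spl/LN and 908, 341 and 527 in VAT after Fat1562, and Ccr9 1174, 1391 and 673 against 2765, 2510.0 and 2098. The tissues were thus nearer to each other than with adjuvant alone. For Ccr9, the Spl/LN mean was 184 with adjuvant alone and 1079 after Fat1562, and the VAT mean 2959 and 2458. Ccr7 had 169, 45.0 and 90.6 against 115, 138 and 124, with overlapping groups. Its Spl/LN mean was 852 with adjuvant alone and 102 after Fat1562, and its VAT mean 87.4 and 126.

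**Figure D4:**
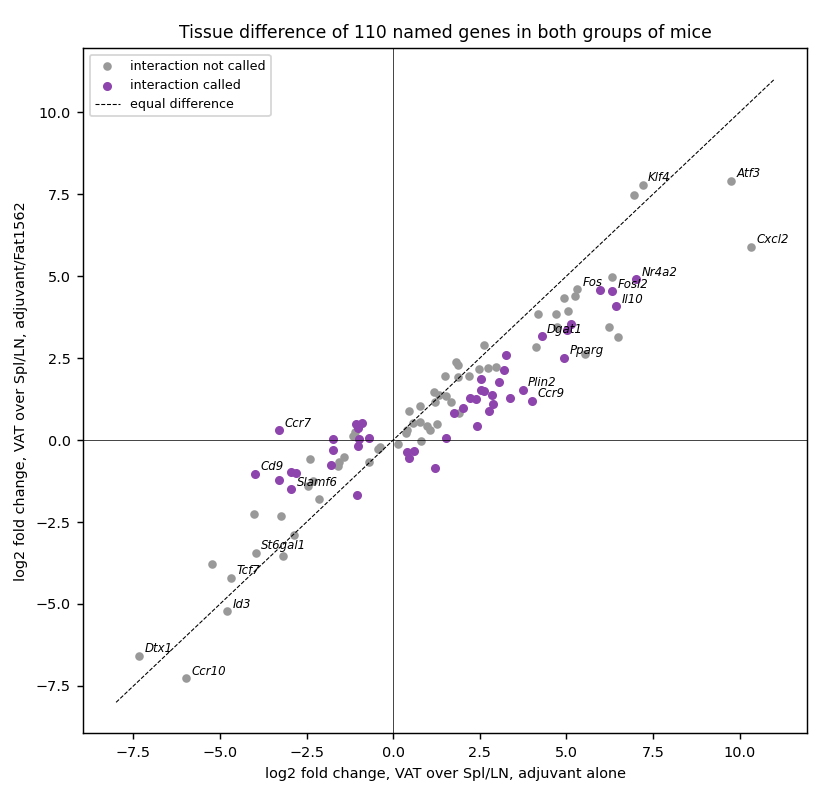
The log2 fold change of VAT over Spl/LN with adjuvant alone (horizontal) and with adjuvant/Fat1562 (vertical) for the 110 genes named by rule, purple where the interaction was called and grey elsewhere, with a dashed line where both would be equal. Of the 46 purple genes, 44 have a smaller difference after Fat1562, among them Ccr9, Pparg and Ccr7, while Dtx1, Id3, Tcf7 and Ccr10 have no interaction call.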

How the data were processed

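Polyadenylated mRNA of 1000 sorted cells per library was copied by Smart-seq2 and read as pairs of 38 bases after 18 cycles of PCR, with no molecular identifiers named, so counting intervals cover counting error only. The authors deposited one table of raw counts per gene symbol. The submitters' processing notes name STAR 2.5.4, featureCounts and mm10, and the methods name Cuffquant 2.2.1, a minimum of 10 and a coefficient of variation under 0.7. The annotation and strand setting are not given in the sources used here. Groups and replicate numbers came from the labels, which state no culture or mouse shared between libraries. P-values measure the spread between these libraries.

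Counts of the 12439 genes with a mean above 10 in either group were tested with edgeR 4.0.16 (R 4.3.3; TMM, quasi-likelihood, prior count 0.125) in one fit of all 11 libraries as 4 groups, which share one estimate of the spread (common biological coefficient of variation 18.7%). Benjamini-Hochberg adjustment covered every gene tested, with calls at an adjusted p under 0.05. A fold against a group without counts is a bound against 3 counts over the group, and one against a group total of 1 to 3 counts is a ratio with its 95% exact counting interval. Tested on simulated data of 12013 genes, this comparison recovered 47 of 100 genes changed by 1 and 92 of 100 changed by 2 on the log2 scale, with 4 false calls. The simulation gave every gene one spread and changed no other genes, far fewer than were called here, so these shares need not hold for the data. Libraries of one group differed beyond sampling noise (chi-square over degrees of freedom at least 5.40).

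The comparison, the gene lists and the rule for named genes were chosen with earlier results of these data known. Named were Foxp3 and Cd4, the 10 largest increases and 10 largest decreases among called, non-overlapping genes with at least 20 normalized counts in each library, per list up to 3 called genes with a mean of at least 50 in the higher group, and other list members where a list is described. Some genes that this rule or a list takes in are not reported here. Positions and shared 38-base stretches came from GENCODE vM21 (GRCm38). Alternatives were no filter, a mean above 50, the limit on the coefficient of variation, RLE factors, quantile normalization with limma 3.58.1, DESeq2 1.42.0, a minimum of 2-fold, a fit of only the groups compared, the replicate number as a block, and each library left out in turn, where a lone VAT library is assumed to vary like the other groups.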

Additional observations from a re-analysis of the deposited data

Results flagged for a closer look

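The tissue difference itself differed between mice given adjuvant/Fat1562 and mice given adjuvant alone for 46 of the 110 named genes, by edgeR's interaction term at an adjusted p under 0.05, against 3.94% of all genes tested. The named genes were chosen for a large difference with adjuvant alone, so a smaller difference elsewhere is to be read against that choice. Values are the log2 difference of VAT over Spl/LN after Fat1562 minus that with adjuvant alone, and do not tell in which tissue the level changed. Of the 46, 44 had a smaller difference after Fat1562, 2 a larger one, and 11 changed sign, and the values of 45 are given.

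Among genes higher in VAT with adjuvant alone, the values were Ccr9 (-2.82), Pparg (-2.44), Il10 (-2.37), Plin2 (-2.20), Nr4a2 (-2.11), Lilrb4a (-2.10), Cd40lg (-2.05), Btg2 (-1.88), Fosl2 (-1.79), Zfp36 (-1.75), Gem (-1.66), Cdkn1a (-1.58), Dnaja1 (-1.46), Dusp10 (-1.46), Areg (-1.39), Il1rl1 (-1.26), Pmaip1 (-1.13), Dgat1 (-1.13), Nfkbid (-1.11), Crem (-1.07), Il18rap (-1.02), Dusp5 (-1.01), Srebf2 (-1.002), Ifngr1 (-0.94), Klf6 (-0.93), Gimap7 (-0.92), Gimap4 (-0.77), Itgav (-0.69) and Tnfaip3 (-0.66). Among genes lower in VAT with adjuvant alone, they were Prkcq (-0.61), Rgs10 (0.75), Ndufa4 (0.82), Rrm2 (1.02), Izumo1r (1.03), Il18r1 (1.41), Rps2 (1.41), Hmmr (1.42), Slamf6 (1.44), Gbp5 (1.56), Nt5e (1.74), Pdlim1 (1.80), Capn3 (1.99), Gpr18 (2.07), Cd9 (2.95) and Ccr7 (3.59). The sign of the tissue difference changed for genes whose difference with adjuvant alone was moderate and also for Ccr7, at -3.29 and 0.30.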

How the results depend on the processing

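With adjuvant alone, a minimum of 2-fold left 1148 calls (646 higher, 502 lower), and a fit of only these 2 groups made 575 lower calls. Leaving out 1 library gave 1287 to 2136 calls, 764 to 1173 higher and 523 to 963 lower, the lowest of each without VAT replicate 1. After Fat1562, a minimum of 2-fold left 768 calls (499 higher, 269 lower), and leaving out 1 library gave 1280 to 1700, with 547 to 777 lower. For the interaction, no filter gave 749 (341 higher, 408 lower), DESeq2 776 (354 higher, 422 lower) and a minimum of 2-fold 280, with 125 lower. Leaving out 1 library gave 247 to 588 interaction calls, 122 to 275 higher and 114 to 313 lower. The cause of these moves was not tested, except that a fold limit makes fewer calls by construction.

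Of 360 list medians under alternatives, 279 stayed within the spread between libraries and 81 moved beyond it. The sign turned in 22, over 12 lists. For 8 of these, the Treg identity, lipid, type I interferon, DNA replication, RGS, cholesterol, oxidative phosphorylation and ribosomal lists, the reported median (-0.143 to 0.130) was itself within that spread of 0 or the move was. The others were T-bet and Th1-like genes on leaving out 1 library (-0.0379 to 0.367, the lowest without VAT replicate 1), other cytokine receptors on leaving out 1 library (-0.0194 to 0.217, the lowest without VAT replicate 2), and IL-2 receptor, STAT5 and SOCS genes (-0.11) and glycolysis (-0.00056) under quantile normalization. Cd4 turned to -0.0512 under quantile normalization (adjusted p = 0.75). Of 1100 values of the 110 named genes, 1039 kept their call and direction and 60 lost the call, in 20 genes, most often in Insig1, Mvd and Ndufa1, at 7 of 10 alternatives each, and in Srebf2, at 6.

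The share of the 2110 calls made again in the same direction was 99.2% with DESeq2, 68.5% in the fit of 2 groups, 56.2% without VAT replicate 1 and 60.9% without VAT replicate 2. The replicate numbers share no stated mouse. With adjuvant alone, deviations of same-numbered Spl/LN and VAT libraries correlated at 0.0568 and 0.0397 across genes, and those of other pairs at -0.0568 to 0.0134. The deviations of 2 VAT libraries mirror each other, so these values cannot settle whether libraries share mice. After Fat1562, same-numbered pairs correlated at 0.0126 to 0.0472 and other pairs at -0.0538 to 0.0288. With the number as a block, 1831 genes were called with adjuvant alone (1030 higher, 801 lower), 1853 after Fat1562 and 446 in the interaction. With 2 VAT libraries of 4490242 and 5289428 counts, differences near 2-fold may be missed. The simulated recovery was 47 in 100 at that size. The simulation gave every gene one spread and changed far fewer genes than were called here, so the share missed in these data is not known.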

Other observations

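Neighbouring genes of the IL-1 receptor cluster on chromosome 1 (GRCm38, plus strand) differed in direction. In order along the chromosome, Il1rl1 (40429570 to 40465415) was higher in VAT by log2 3.04 ± 0.19, Il18r1 (40465552 to 40500854) was lower by -1.73 ± 0.22, and Il18rap (40515362 to 40551705) was higher by 2.01 ± 0.21 (SE, edgeR's fit). Both VAT libraries lay outside the Spl/LN range for each gene. After Fat1562, the log2 differences were 1.78, -0.31 and 0.99. These genes were set side by side after their values were seen.

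On chromosome 5, Cxcl3 (90786103 to 90789600), Cxcl1 (90891241 to 90893115), Cxcl2 (90903871 to 90905938) and Areg (91139599 to 91148432), all on the plus strand, lie in that order and were all higher in VAT. Areg was counted in every Spl/LN library, at 109.7, 121 and 122 normalized counts, whereas the 3 chemokine genes together had 6 counts there. After Fat1562, Cxcl2 had 16.2, 9.63 and 5.61 normalized counts in Spl/LN and 1250.0, 331 and 283 in VAT. This grouping was also made after the values were seen.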
